A study of Saccharomyces cerevisiae with 38 samples.

Results

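The 31 genes described here encode aminoacyl-tRNA synthetases of Saccharomyces cerevisiae, and they were picked by gene symbol from the probe annotation. They are 31 of the 5548 genes with a named spot on the arrays, 18 for cytosolic enzymes and 13 for mitochondrial enzymes. Each synthetase joins 1 amino acid to the tRNAs whose anticodons read its codons, and the ribosome then draws on these charged tRNAs. Yeast keeps a separate, bacterial-like translation system in its mitochondria, and nuclear genes encode its synthetases. For several amino acids a single gene serves both compartments. Uncharged tRNA is the signal that the kinase Gcn2 reads in the general control pathway, which raises production of the activator Gcn4.

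The study measured polyA RNA on 38 two-colour arrays, each setting a yeast strain against WT RNA in the other dye, to relate TAF1 to histone acetyltransferases (HATs). TAF1 is a subunit of TFIID, a factor that helps RNA polymerase II start transcription. The groups with ts2, read here as a temperature-sensitive TAF1 allele, were ts2 alone (6 arrays) and elp3 ts2, esa1 ts2, gcn5 ts2, hat1 ts2, hpa2 ts2 and sas3 ts2 (2 arrays each). Each HAT mutation was also hybridised without ts2 (elp3, esa1, gcn5, hat1, hpa2, sas3, again 2 arrays each), and WT was set against itself on 8 arrays. All groups, WT included, were grown in CSM-HIS to an OD600 of about 0.8 and held at 37 °C for 45 minutes before harvest. The labels give no HAT allele, no strain background and no count of clones. Nothing in them tells whether the arrays of a group stand for different cultures. The p-values therefore rest on the spread between arrays, which may be technical.

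Values are log2 ratios of the strain to WT, with the median of all named genes subtracted on each array. A value of 0 therefore marks the median gene, and a shift shared by all genes has been removed. A gene was called where limma's linear model gave a Benjamini-Hochberg adjusted p under 0.05 over all genes of a comparison. All comparisons share the WT arrays and the WT reference, so they are set side by side and not counted as independent. The number of arrays limits the precision, above all in the groups of 2.

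The targeted genes were read first as a check of the labels. GCN5 was low in the groups labelled gcn5 and gcn5 ts2 (log2 changes of -2.53 and -3.17), and HAT1 was low in those labelled hat1 and hat1 ts2 (-3.01 and -3.28). The direction of the ratio was read from these genes, which were low in both dye orientations. ELP3, HPA2 and SAS3 spots did not settle the other labels. ELP3 was at 0.05 in elp3 and -0.37 in elp3 ts2, HPA2 at 0.20 in hpa2 (arrays at -1.07 and 1.48) and -0.53 in hpa2 ts2, and SAS3 at -1.59 in sas3 and -1.19 in sas3 ts2. Of these, ELP3 in elp3 ts2 and SAS3 in sas3 ts2 were called lower. TAF1 RNA was between -0.01 and 0.66 in the groups with ts2, called higher in all but gcn5 ts2. ESA1 RNA was higher in the groups labelled esa1 and esa1 ts2 (0.97 and 0.77). Of the 342 pairs of arrays with the same dye orientation, the lowest correlation over all spots was -0.178, between ts2 A and hpa2 A. Over named genes it was -0.309, and results for hpa2 are also given with the sign of hpa2 A turned.

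Most cytosolic synthetase genes fell in ts2 against WT. Of the 18, 14 were called lower and none higher, while 33.2% of all genes tested were called lower and 32.0% higher, 65.2% in all. The median change of the 18 genes was -0.48, beside 0.01 for all genes. Without the centring the median gene of ts2 itself stood at -0.36, the cytosolic median was -0.84 and 13 cytosolic genes were called lower. Of all genes, 2138 of 5546 were then called, in both directions together. The numbers that open the array titles fall into 4 bands of slides, called slide runs here, and ts2 was spread over runs 2, 3 and 4. Within these runs 13, 11 and 12 cytosolic genes were called lower, with medians of -0.50, -0.48 and -0.55. With run as a block 14 were called lower. Of all genes, 3384 of 5548, 3432 of 5546 and 2624 of 5541 were called in these runs, in both directions together. With run as a block 2997 of 5546 were.

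**Figure D1:**
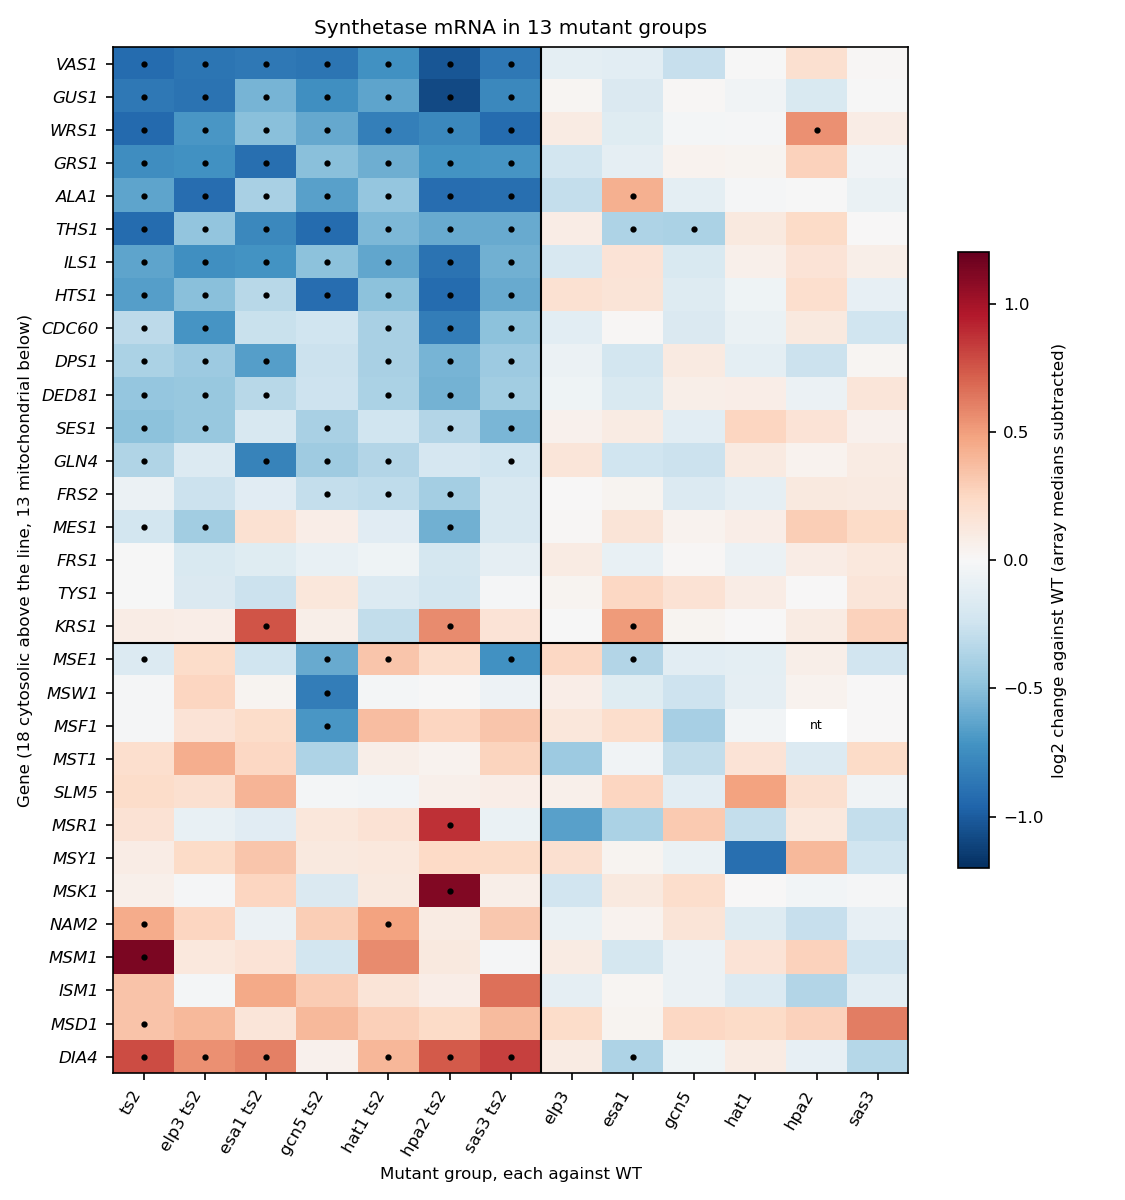
Log2 change against WT (colour, array medians subtracted) of the 31 synthetase genes (rows, 18 cytosolic above the line) in the 13 mutant groups (columns, 7 groups with ts2 on the left). Dots mark genes called by limma at an adjusted p under 0.05 and nt marks MSF1 in hpa2, which was not tested. The cytosolic genes in the upper left are mostly blue, and 8 of them carry a dot in all 7 groups with ts2. On the deposited scale none of the 31 genes was called in elp3 ts2, hat1 ts2, hpa2 ts2 and sas3 ts2. The rises of DIA4 in ts2 and of DIA4 and KRS1 in esa1 ts2 were not called there either.

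The largest falls were in the genes for the tryptophan, valine, threonine and glutamate enzymes. WRS1, which charges tRNA with tryptophan, had a lowest, median and highest value of -1.22, -0.97 and -0.61 over the 6 ts2 arrays, against -0.05, 0.05 and 0.33 over the 8 WT arrays. VAS1, for valine, had -1.34, -0.92 and -0.58 in ts2, against -0.18, -0.04 and 0.22 in WT. THS1, for threonine, had -1.25, -0.89 and -0.70 in ts2, against -0.29, -0.09 and 0.38 in WT. Every ts2 array lay below every WT array for each of these 3 genes. The log2 changes were -0.93 ± 0.07 for WRS1, -0.92 ± 0.06 for VAS1 and -0.92 ± 0.07 for THS1 (SE, limma). The adjusted p was 3.72e-12 for WRS1, 1.39e-13 for VAS1 and 1.90e-12 for THS1. A log2 change of -0.93 is a ratio of 0.525 of ts2 over WT for WRS1.

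GUS1, the glutamate enzyme, and GRS1, the glycine enzyme, completed the 5 largest falls. GUS1 had a lowest, median and highest value of -1.23, -0.81 and -0.64 in ts2, against -0.35, 0.00 and 0.14 in WT. GRS1 had -0.88, -0.72 and -0.66 in ts2, against -0.09, 0.02 and 0.14 in WT. Neither gene's arrays overlapped between the groups. The changes were -0.86 ± 0.09 for GUS1 (adjusted p = 2.02e-09) and -0.75 ± 0.04 for GRS1 (adjusted p = 1.50e-14; SE, limma).

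Smaller falls were called for HTS1 (histidine, -0.66), ILS1 (isoleucine, -0.63), ALA1 (alanine, -0.63), SES1 (serine, -0.49) and DED81 (asparagine, -0.46). For these 5 genes, too, no ts2 array overlapped a WT array. Such separation held for 10 of the 31 synthetase genes on the low side, while 15.1% of all genes tested were separated in that direction. DPS1 (aspartate, -0.38), GLN4 (glutamine, -0.36), CDC60 (leucine, -0.32) and MES1 (methionine, -0.22) were also called lower, and their ts2 and WT arrays overlapped. The MES1 and CDC60 calls were lost within slide runs 3 and 4, and MES1 read 0.01 within run 3. The calls of DPS1 within run 2 and of SES1 within run 3 were lost as well.

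The remaining 4 cytosolic genes were not called in ts2. The phenylalanine enzyme has 2 subunits from separate genes. FRS1, for its beta subunit, had a lowest, median and highest value of -0.19, -0.04 and 0.37 in ts2, against -0.10, 0.05 and 0.26 in WT. FRS2, for its alpha subunit, had -0.30, -0.08 and 0.16 in ts2, against -0.16, 0.07 and 0.34 in WT. The groups overlapped for both subunits, with changes of 0.00 ± 0.07 and -0.07 ± 0.06 (SE). TYS1, for tyrosine, had a change of -0.01, and KRS1, for lysine, of 0.09, each with a missing value on ts2 F.

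The cytosolic genes were also grouped by structural class, after the values were seen. In ts2, 7 of the 8 class I and 7 of the 10 class II genes were called lower, beside 33.2% of all genes. The class I and class II medians were -0.50 and -0.48. ALA1, GRS1, HTS1 and VAS1 each give both the cytosolic and the mitochondrial enzyme from a single gene. All 4 were called lower, beside 33.2% of all genes, with changes between -0.92 and -0.63.

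Of the 13 genes for purely mitochondrial enzymes, 4 were called higher in ts2 and 1 lower, beside 32.0% and 33.2% of all genes. The share called higher was thus near that of all genes, 1 of the 4 calls rested on a single array, and the median change was 0.20. On the deposited scale their median was -0.16 and none was called, so the direction of this group depends on the centring. DIA4, a probable mitochondrial seryl-tRNA synthetase, had a lowest, median and highest value of 0.41, 0.84 and 0.93 in ts2, against -0.07, 0.02 and 0.16 in WT. NAM2, the leucine enzyme, which also takes part in splicing of mitochondrial introns, had 0.20, 0.41 and 0.70 in ts2, against -0.78, 0.03 and 0.09 in WT. Every ts2 array lay above every WT array for DIA4 and NAM2, a separation that 14.3% of all genes showed on the high side. The changes were 0.78 ± 0.07 for DIA4 (adjusted p = 3.59e-11) and 0.45 ± 0.10 for NAM2 (adjusted p = 0.000298; SE, limma).

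The other mitochondrial calls in ts2 were weaker. MSM1, the methionine enzyme, read 6.21 on ts2 F and between -0.04 and 0.35 on the other 5 ts2 arrays, against a range of -0.48 to 0.17 in WT. Its change of 1.13 ± 0.44 (SE) was called, and without ts2 F it was 0.12 with an adjusted p of 0.325 (limma). MSD1, for aspartate, had 0.14, 0.35 and 0.51 as lowest, median and highest in ts2, against -0.07, 0.15 and 0.40 in WT. Its change of 0.34, taken from a WT fixed at 0, was called although the arrays overlapped. The MSD1 call was lost under 5 of 26 alternative settings, WT arrays with their own coefficient and slide run as a block among them. MSE1, for glutamate, had -0.44, -0.10 and -0.02 in ts2, against -0.27, -0.07 and 0.27 in WT, and was the 1 gene called lower (-0.16). The MSE1 call was lost under 10 of 26 alternative settings, leaving out ts2 D or ts2 F among them.

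**Figure D2:**
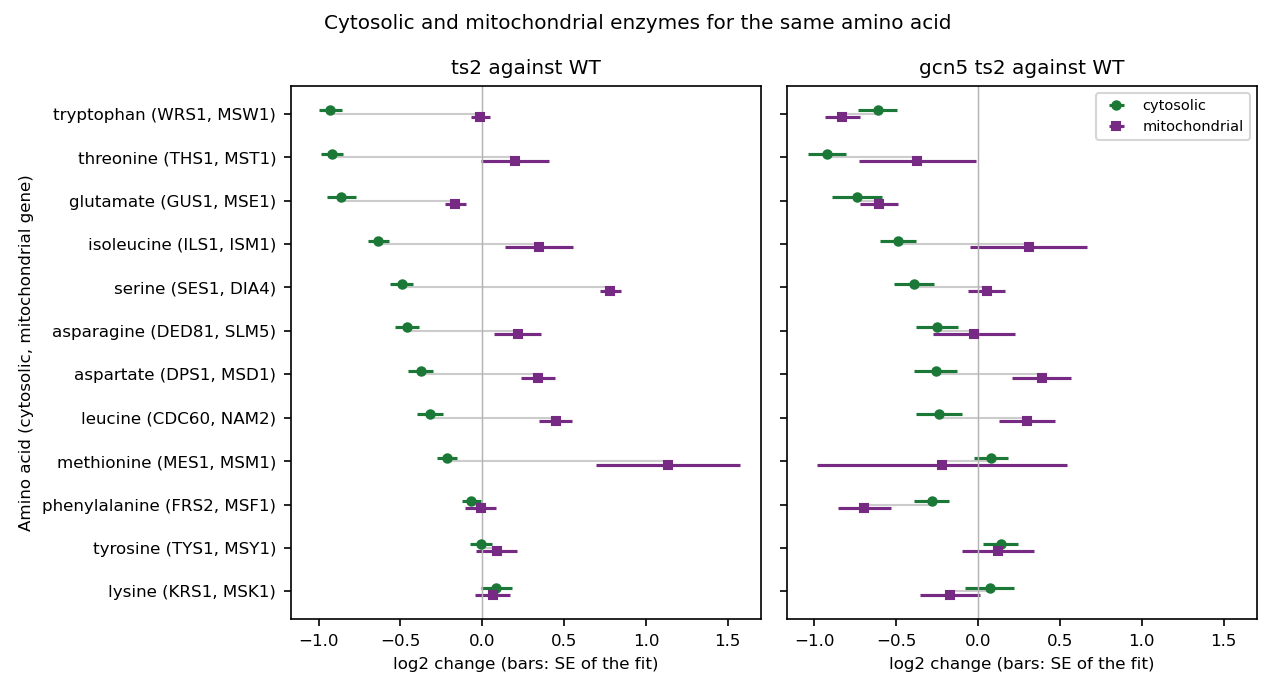
Log2 change against WT, with array medians subtracted, of the cytosolic gene (green circles) and the mitochondrial gene (purple squares) for each of 12 amino acids, in ts2 (left) and gcn5 ts2 (right). Bars are SEs of the limma fit. The cytosolic gene was the lower of its pair for 11 amino acids in ts2 and for 7 in gcn5 ts2.

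For 12 amino acids the list held a cytosolic gene and a separate mitochondrial gene, with FRS2 taken for the cytosolic phenylalanine enzyme. In ts2 the cytosolic gene had the lower change of the pair for 11 of the 12, although by no more than 0.10 for phenylalanine and tyrosine. Without ts2 the same tally was 9 in elp3, 5 in esa1, 6 in gcn5, 6 in hat1, 3 in sas3 and, of 11 pairs tested, 4 in hpa2. For serine, SES1 changed by -0.49 and DIA4 by 0.78, and for isoleucine ILS1 changed by -0.63 and ISM1 by 0.35, the last not called. Lysine was the exception, with KRS1 at 0.09 and MSK1 at 0.06, neither called. A difference between 2 genes on 1 array is not altered by the centring. On single arrays, the cytosolic median minus the mitochondrial median lay between -0.90 and -0.47 in ts2, against -0.15 to 0.11 in WT. The arrays of these groups did not overlap in this difference.

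**Figure D3:**
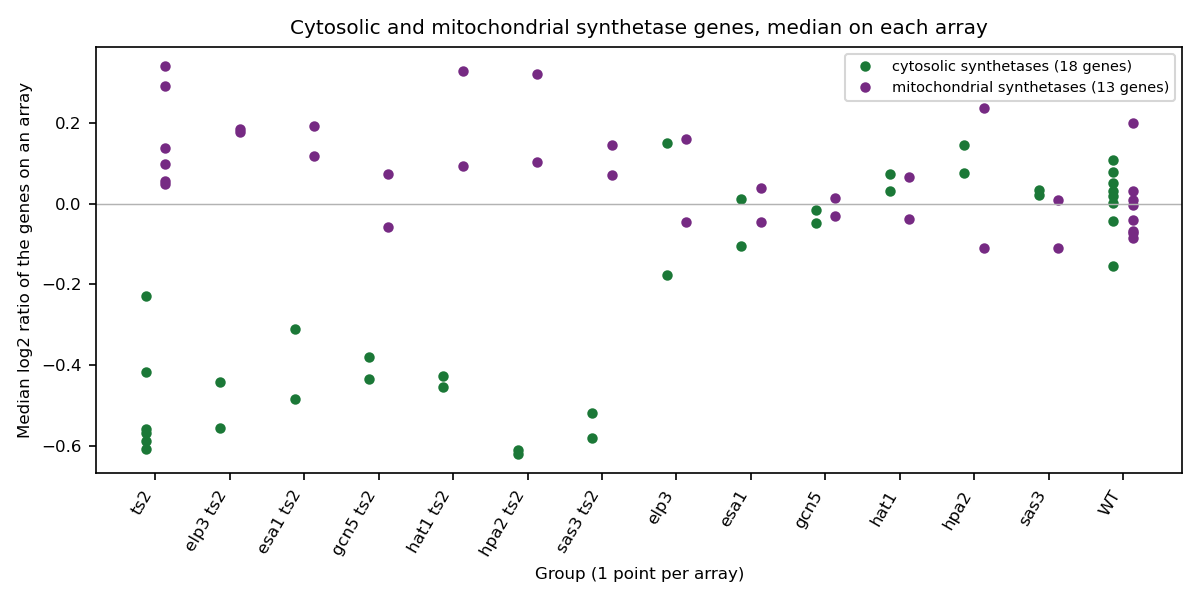
Median log2 ratio (array medians subtracted) of the 18 cytosolic genes (green) and the 13 mitochondrial genes (purple) on each of the 38 arrays, by group, with WT at the right. The cytosolic medians of all arrays with ts2 lie below the mitochondrial medians of the same arrays, and the WT differences between the lists run from -0.15 to 0.11. On the deposited scale the mitochondrial median in ts2 was -0.16.

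The 6 double mutants with ts2 showed falls in the same class of genes. Of the 18 cytosolic genes, 13 were called lower in elp3 ts2, 11 in esa1 ts2, 11 in gcn5 ts2, 13 in hat1 ts2, 14 in hpa2 ts2 and 13 in sas3 ts2. In hat1 ts2 the calls among all 31 genes numbered 16, but 7 with a replicate block by array letter, and fewer than 16 with either array left out. Of all genes, 1725 of 5484 were called in hat1 ts2, and 1127 with that block. Over all genes, 39.7% were called in elp3 ts2, 56.3% in esa1 ts2, 54.1% in gcn5 ts2, 31.5% in hat1 ts2, 45.2% in hpa2 ts2 and 48.2% in sas3 ts2, in both directions together. The shares called lower were 19.9%, 28.5%, 27.7%, 16.4%, 23.4% and 24.4% in the same order of groups, and the shares called higher 19.8%, 27.8%, 26.4%, 15.0%, 21.8% and 23.8%. Cytosolic medians were -0.47 in elp3 ts2, -0.36 in esa1 ts2, -0.41 in gcn5 ts2, -0.39 in hat1 ts2, -0.59 in hpa2 ts2 and -0.52 in sas3 ts2, while the medians of all genes lay between -0.01 and 0.01. The mitochondrial medians were between 0.17 and 0.23 in 5 of these groups and -0.03 in gcn5 ts2. On the deposited scale, no synthetase gene was called in elp3 ts2, hat1 ts2, hpa2 ts2 or sas3 ts2. Of all genes, 178 of 5526, 118 of 5484, 334 of 5524 and 470 of 5528 were called there. In esa1 ts2, 20 synthetase genes were called lower, where 3045 of 5530 genes were called and the median gene stood at -1.02.

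ALA1, GRS1, GUS1, HTS1, ILS1, THS1, VAS1 and WRS1 were called lower in all 7 groups with ts2, as were 8.43% of all genes tested in each of them. No synthetase gene was called higher in all 7, as 8.04% of all genes were. GRS1, ILS1 and VAS1 kept their calls in all 7 groups with any 1 array left out. Calls were lost for ALA1, HTS1 and WRS1 without esa1 ts2 A, GUS1 without esa1 ts2 B, HTS1 and THS1 without elp3 ts2 B, ALA1 and HTS1 without hat1 ts2 A, and GUS1 and HTS1 without hat1 ts2 B. The 18 arrays with ts2 lay below the 20 arrays without it for 5 of these genes, a comparison made after the values were seen. They were GRS1, GUS1, ILS1, VAS1 and WRS1, and 2.77% of all genes were separated in that way. None was separated on the high side, as 1.71% of all genes were. VAS1 ran from -1.34 to -0.58 on arrays with ts2, against -0.39 to 0.32 on arrays without it. GUS1 ran from -1.27 to -0.49 with ts2, against -0.45 to 0.49 without it. WRS1 ran from -1.22 to -0.47 with ts2, against -0.18 to 0.77 without it.

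VAS1 was among the 3 largest falls in each of the 6 double mutants. It read -1.02 and -0.72 in elp3 ts2, -0.96 and -0.77 in esa1 ts2, -0.96 and -0.79 in gcn5 ts2, -0.73 and -0.73 in hat1 ts2, -1.22 and -0.84 in hpa2 ts2 and -0.90 and -0.83 in sas3 ts2, against -0.18 to 0.22 in WT. All 12 arrays lay below the WT range, and the changes against WT ran between -1.03 and -0.73. VAS1 was picked by its falls on these same arrays, and the share of all genes lying so was not counted.

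Other genes among the 3 largest falls of a double mutant follow, and a gene outside the 3 in a group need not differ there. ALA1, the alanine enzyme, read -1.06 and -0.78 in elp3 ts2 and -0.82 and -0.99 in sas3 ts2, against -0.40 to 0.19 in WT. In hpa2 ts2, where it came just after GUS1, VAS1 and HTS1, ALA1 read -1.11 and -0.73. The ALA1 change was -0.92 ± 0.13 in elp3 ts2, -0.92 ± 0.13 in hpa2 ts2 and -0.91 ± 0.13 in sas3 ts2 (SE). GUS1 read -1.16 and -0.61 in elp3 ts2, -0.49 and -0.79 in hat1 ts2 and -1.27 and -0.90 in hpa2 ts2, against -0.35 to 0.14 in WT. These arrays, too, lay below all WT arrays. HTS1, the histidine enzyme, read -0.77 and -1.07 in gcn5 ts2 and -0.59 and -1.26 in hpa2 ts2, against -0.17 to 0.26 in WT. WRS1 read -0.70 and -0.94 in hat1 ts2 and -1.09 and -0.76 in sas3 ts2, against -0.05 to 0.33 in WT. No array of HTS1 or WRS1 in these groups overlapped WT. The genes of this paragraph, too, were picked by their falls on the same arrays, and the share of all genes was not counted. GRS1 read -0.93 and -0.88 in esa1 ts2, against -0.09 to 0.14 in WT, and THS1 read -1.01 and -0.83 in gcn5 ts2, against -0.29 to 0.38 in WT. The GUS1 change was -1.08 ± 0.15 in hpa2 ts2, the largest fall among the 31 genes in the 13 comparisons with WT (SE; adjusted p = 1.62e-06, limma).

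The other cytosolic genes were called in fewer groups, and of their interactions only that of MES1 in hpa2 was called. DED81 and DPS1 were called lower in 6 of the 7 groups with ts2, and CDC60, GLN4 and SES1 in 5. The share of all genes called lower in 5 or 6 of these groups was not counted. MES1 was called lower in ts2, elp3 ts2 and hpa2 ts2, and FRS2 in gcn5 ts2, hat1 ts2 and hpa2 ts2. FRS1 and TYS1 were called in no comparison with WT. In the esa1 ts2 arrays GLN4 read -0.78 and -0.83, beside a range of -0.43 to -0.21 in ts2 alone, and its change against WT was -0.80 ± 0.10 (SE). The esa1 by ts2 interaction of GLN4 was not called.

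**Figure D4:**
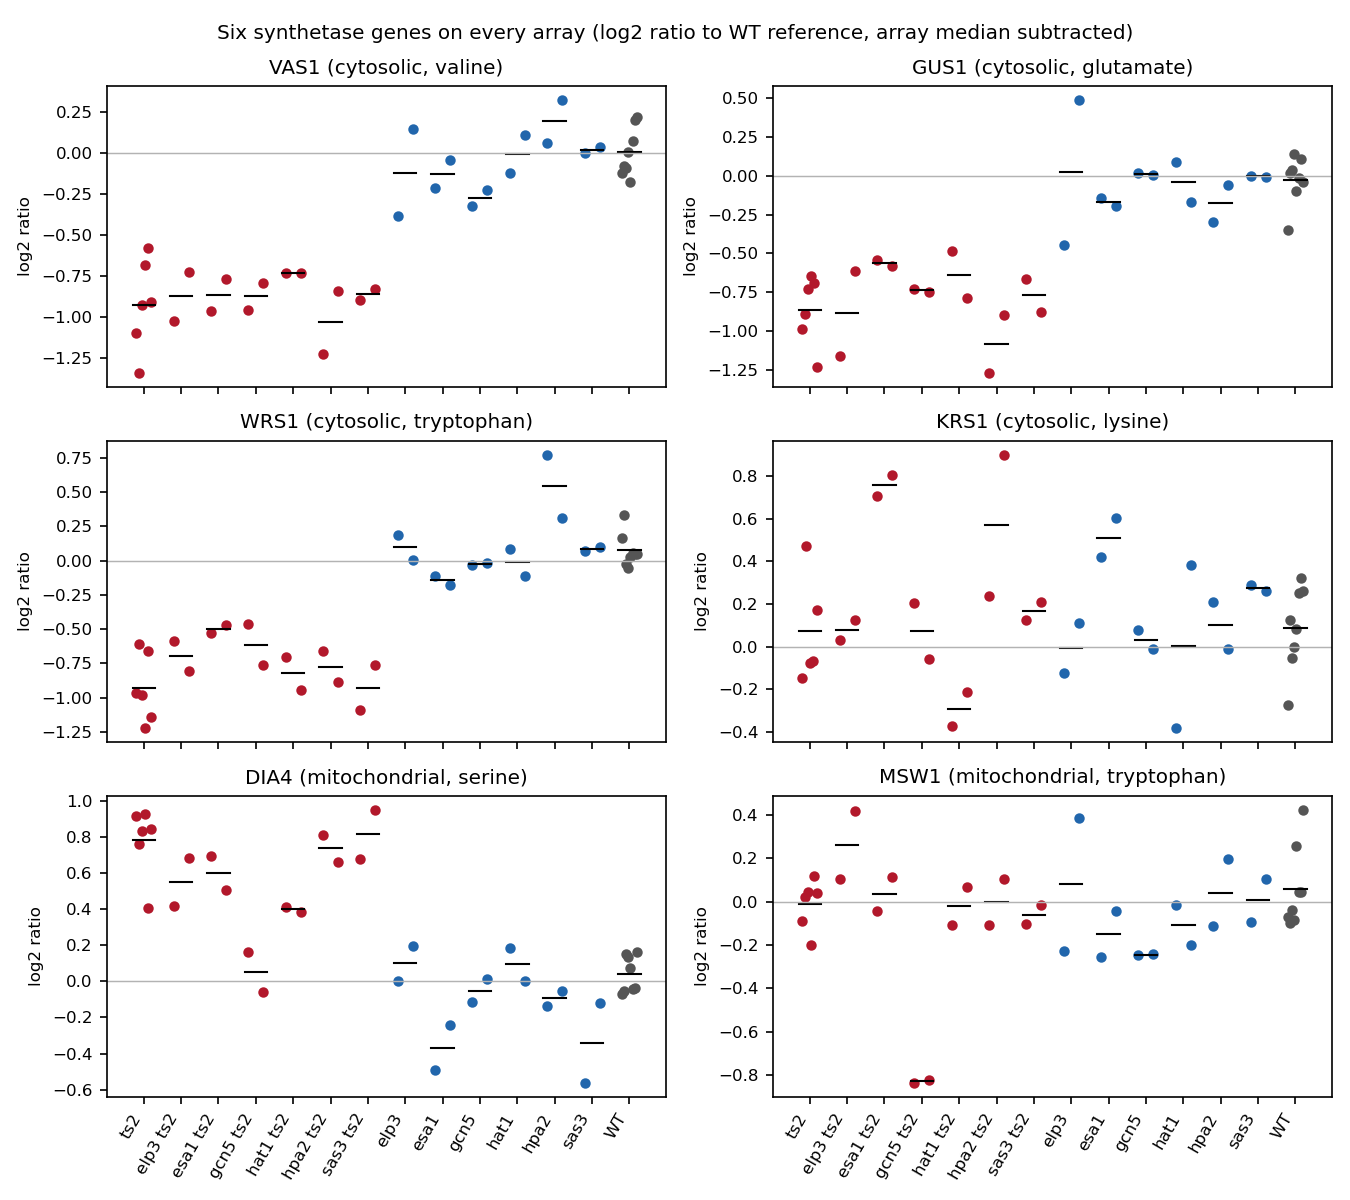
Log2 ratio to the WT reference (array median subtracted) of VAS1, GUS1, WRS1, KRS1, DIA4 and MSW1 on every array, by group. Red points are arrays with ts2, blue points other mutants, grey points WT, and black lines group means. These genes were chosen after their values were seen. VAS1, GUS1 and WRS1 lie low on all 18 arrays with ts2, DIA4 lies high in 6 of the 7 groups with ts2, and MSW1 is low in gcn5 ts2 alone among the groups with ts2. On the deposited scale the changes of DIA4 and KRS1 in esa1 ts2 were -0.43 and -0.27.

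KRS1 was the 1 cytosolic gene called higher in any group with ts2, on the centred scale. It read 0.71 and 0.81 in esa1 ts2 and 0.24 and 0.90 in hpa2 ts2, against a range of -0.27 to 0.32 in WT. The esa1 ts2 arrays lay above all WT arrays, and 1 of the hpa2 ts2 arrays lay among them. The changes were 0.76 ± 0.15 in esa1 ts2 and 0.57 ± 0.15 in hpa2 ts2 (SE), with adjusted p values of 0.000106 and 0.00268 (limma). Without hpa2 ts2 B the call in hpa2 ts2 was lost.

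DIA4 was called higher in 6 of the 7 groups with ts2, and the share of all genes so called was not counted. DIA4 lost the call in hat1 ts2 without either array and in elp3 ts2 without array B. It read 0.68 and 0.95 in sas3 ts2, 0.81 and 0.66 in hpa2 ts2, 0.70 and 0.51 in esa1 ts2, 0.42 and 0.69 in elp3 ts2 and 0.42 and 0.39 in hat1 ts2, against -0.07 to 0.16 in WT. In gcn5 ts2 it read 0.16 and -0.06, both within the WT range, with a change of 0.05 that was not called. The gcn5 by ts2 interaction, the double mutant minus ts2 minus gcn5, was -0.68 ± 0.17 for DIA4 (SE; adjusted p = 0.0535, limma). It passed with the slide as a random block (adjusted p = 0.0201), within slide run 2 (0.0437) and without ts2 E (0.00875). Under no other alternative setting was it called, slide run as a block, no dye term and the deposited scale among them.

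The gcn5 ts2 arrays also held the lowest values of 2 mitochondrial genes. MSW1, for tryptophan, read -0.84 and -0.82 in gcn5 ts2 and -0.25 and -0.24 in gcn5, against -0.10 to 0.42 in WT. MSF1, for phenylalanine, read -0.77 and -0.62 in gcn5 ts2 and -0.46 and -0.34 in gcn5, against -0.71 to 0.20 in WT. Both gcn5 ts2 arrays of MSW1 lay below every WT array, and WT D reached into the MSF1 range. The changes against WT in gcn5 ts2 were -0.83 ± 0.11 for MSW1 and -0.69 ± 0.16 for MSF1 (SE, both called). MSW1 had a gcn5 by ts2 interaction of -0.57 ± 0.16 (SE; adjusted p = 0.0855, limma), so it was not called. It passed with the slide as a random block (adjusted p = 0.0369) and without ts2 D (0.0344), and under no other alternative setting.

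MSE1 was called in both directions among the double mutants. It read -0.80 and -0.65 in sas3 ts2, -0.50 and -0.71 in gcn5 ts2 and 0.32 and 0.34 in hat1 ts2, against -0.27 to 0.27 in WT. The changes of -0.72, -0.60 and 0.33 were called, the last lost without either hat1 ts2 array. NAM2 was called higher in hat1 ts2 (0.48), also lost without either array.

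Further mitochondrial calls in hpa2 ts2 rested on 1 array each. MSK1, for lysine, read 0.38 on array A and 1.84 on array B in hpa2 ts2, against -0.84 to 0.27 in WT. MSR1, for arginine, read 1.92 on array A and -0.17 on array B, against -1.49 to 0.28 in WT. The changes were 1.11 ± 0.18 and 0.87 ± 0.32 (SE), MSK1 lost its call without array B, and MSR1 turned to -0.19 without array A. The title and the strain field of hpa2 ts2 A name different mutants, and the array was kept under its title. Without it 17 synthetase genes were called in hpa2 ts2, beside 18 with it.

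The HAT mutants without ts2 gave few calls. In elp3, hat1 and sas3, no synthetase gene was called by limma, where 0.452%, 0.572% and 0.163% of all genes were called. At an unadjusted p under 0.05, 3 synthetase genes passed in elp3, 2 in hat1 and 3 in sas3, out of 31 each. These are 9.68%, 6.45% and 9.68% of the synthetase genes, beside 11.7%, 5.83% and 5.96% of all genes. Elp3 is the catalytic subunit of Elongator, a complex known for modifying wobble uridines of tRNAs. The median change in elp3 was 0.01 for cytosolic and 0.08 for mitochondrial genes.

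In esa1, 28.8% of all genes were called, 17.0% higher and 11.9% lower, and of the 31 synthetase genes 2 were called higher and 3 lower. Esa1 is the catalytic subunit of NuA4, an essential HAT complex. KRS1 read 0.42 and 0.60 and ALA1 0.50 and 0.35 in esa1, against -0.27 to 0.32 and -0.40 to 0.19 in WT. THS1 read -0.32 and -0.42, MSE1 -0.36 and -0.34 and DIA4 -0.49 and -0.24 in esa1, against lowest WT values of -0.29, -0.27 and -0.07. The esa1 arrays lay outside the WT range for all 5 genes, which were picked by their calls on these same arrays. The share of all genes lying outside that range was not counted. The changes were 0.51 for KRS1, 0.42 for ALA1, and -0.37, -0.35 and -0.37 for THS1, MSE1 and DIA4 (limma adjusted p between 0.0110 and 0.0197). Without esa1 A no synthetase gene was called, without esa1 B 1 was called, and none with slide run as a block. THS1 lies on chromosome IX, whose 203 tested genes had a median change of -0.41 in esa1, with 89 called lower and 8 higher. THS1 stood above 54.7% of that chromosome's genes in esa1. In esa1 ts2, where THS1 was also called lower (-0.77), its 204 tested genes had a median of -0.18, with 79 called lower and 39 higher. THS1 stood above 24.0% of them there. Whether the shift of the chromosome has a part in either call was not tested.

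In gcn5, 18.5% of all genes were called, 9.15% higher and 9.35% lower, and THS1, called lower, was the 1 synthetase gene among them. Gcn5 is the HAT of the SAGA coactivator. THS1 read -0.45 and -0.31 in gcn5, against -0.29 to 0.38 in WT, and its change was -0.38 ± 0.12 (SE; adjusted p = 0.0208, limma). The call was lost without either gcn5 array. In hpa2, 0.401% of all genes were called and WRS1 was the 1 synthetase gene among the 30 tested. WRS1 read 0.77 and 0.31 in hpa2, against -0.05 to 0.33 in WT, and hpa2 B fell within the WT range. The WRS1 call was lost without hpa2 A, and the change was -0.23 with the sign of that array turned.

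The double mutants were also compared with the sum of their single mutants. No synthetase gene was called in the elp3, esa1, gcn5, hat1 and sas3 interactions, where limma called 0.725%, 4.89%, 0.993%, 0.409% and 0.0% of all genes. At an unadjusted p under 0.05, 1, 4, 4, 3 and 2 synthetase genes passed in the same order, which is 3.23%, 12.9%, 12.9%, 9.68% and 6.45% of them, beside 13.7%, 17.0%, 11.04%, 12.3% and 3.10% of all genes. Each esa1, gcn5, hat1 and sas3 array shared a slide with an array of its double mutant. With the slide as a random block, TYS1 (-0.48) and WRS1 (0.59) were called in the esa1 interaction, and DIA4 (-0.67) and MSW1 (-0.56) in the gcn5 interaction. In the hpa2 interaction, where 1.83% of all genes were called, MES1 (-0.66) and MSK1 (1.08) were called. The elp3 ts2 and hpa2 ts2 arrays all lay in slide run 1, which held no array of ts2 alone. A shift between runs can thus enter these 2 interactions. With slide run as a block neither MES1 nor MSK1 was called. With the sign of hpa2 A turned, neither was called, 389 genes in place of 100 were, and CDC60 (-0.96) and MSE1 (0.66) were among them. MES1 lost its call under 11 of 28 alternative settings, leaving out any 1 of the 4 hpa2 and hpa2 ts2 arrays among them. MSK1 lost its call under 15 of 28, among them leaving out hpa2 ts2 B, hpa2 A, ts2 C, ts2 D, ts2 F, WT C, WT F or WT G.

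Genes that work beside the synthetases were read from lists made with earlier results known. Of 10 other synthetases and charging factors, 2 were called higher and 3 lower in ts2, where 32.0% of all genes were called higher and 33.2% lower. PET112 and GTF1, subunits of the mitochondrial glutamyl-tRNA amidotransferase, changed by 0.42 and 0.40. YDR341C changed by -1.26, YHR020W by -0.65 and CRS1 by -0.35. ARC1, the cofactor that binds Mes1 and Gus1, changed by -0.05 and was not called. YDR341C was called lower in all 7 groups with ts2, as were 8.43% of all genes, with changes between -1.69 and -0.83. It was also called lower in esa1 (-0.47) and gcn5 (-0.34).

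Of 34 genes for tRNA maturation and export, 20 were called lower and 3 higher in ts2, beside 33.2% and 32.0% of all genes. LHP1, the yeast La protein, changed by -1.26, SMM1, a dihydrouridine synthase, by -0.97 and SEN34, a subunit of the tRNA splicing endonuclease, by -0.92. RPM2, the protein subunit of mitochondrial RNase P, changed by 0.86. The median of the 34 genes was -0.33.

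The general control genes and the enzymes under Gcn4 were called in both directions. GCN4 RNA was called higher in all 7 groups with ts2, as were 8.04% of all genes. It changed by 0.98 in ts2, 1.10 in elp3 ts2, 1.54 in esa1 ts2 and 1.16 in gcn5 ts2. The changes were 0.73 in hat1 ts2, 1.03 in hpa2 ts2 and 1.10 in sas3 ts2. GCN4 was also called higher in esa1 (0.85) and gcn5 (0.44). GCN4 is known to be controlled mainly in translation, which arrays of RNA do not measure. Of 13 general control genes, 2 were called higher and 6 lower in ts2 (32.0% and 33.2% of all genes), with falls of GCN3 (-0.87), GCN1 (-0.59) and YIH1 (-0.54). Of 32 amino acid enzymes under Gcn4, 21 were called higher and 6 lower (again beside 32.0% and 33.2%), with a median of 0.64. HIS4 of histidine synthesis changed by 2.39, ILV5 of branched-chain synthesis by 1.52 and CPA1 of arginine synthesis by 1.38, while ARO4 of aromatic synthesis changed by -1.13. In esa1, 18 of the 32 enzymes were called higher and none lower (17.0% and 11.9% of all genes), beside 2 synthetase genes higher and 3 lower.

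Translation factors were called in both directions in ts2, as were all genes (32.0% higher, 33.2% lower). Of 8 cytosolic elongation factor genes, 3 were called higher in ts2, among them TEF1 (0.85), and 4 lower, among them EFB1 (-0.63). In esa1, 7 of the 8 were called higher, beside 17.0% of all genes. Of 6 mitochondrial translation factor genes, 3 were called higher in ts2, MEF2 (0.60), MEF1 (0.53) and IFM1 (0.47), and TUF1 was called lower (-0.27).

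As a description over the 38 arrays, which share the WT reference RNA, VAS1 had a Pearson correlation of 0.96 with the median of the other cytosolic synthetases and ILS1 of 0.93. KRS1 had -0.10 over 37 arrays and DIA4 -0.82. The 2 subunits of the phenylalanine enzyme, FRS1 and FRS2, had 0.44 with each other.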

How the data were processed

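The deposited values were linear ratios with some values at or below 0; per the series' design text, dye-swap data were mode normalized in R and then corrected with Bacillus subtilis spiking controls. The direction of the deposited ratio was not given in the sources used here and was read as strain over WT. The highest correlation between 2 arrays was 0.803, so no array was counted as a copy of another. Values above 0 were taken to log2 and averaged over spots of a gene, and each array's median over named genes was subtracted. This removes any shift of all genes that the spikes had kept. Of 7056 spots, 5579 carried a single gene symbol. One limma (3.58.1, R 4.3.3) model per gene over all 38 arrays held 13 mutant coefficients, with WT fixed at 0 and a dye term, and 24 residual degrees of freedom. A gene needed values on 4 ts2 arrays, 6 WT arrays and both arrays of a pair. The dye orientation of WT arrays was taken from the array on the same slide, or from the letter for WT E. On simulated data, the ts2 comparison recovered 79.0% of changes of 0.5 and 95.0% of changes of 1, with 11 false calls among 185. The esa1 comparison, with 2 arrays, recovered 27.0% and 78.8%. In the simulated ts2 comparison 100 genes changed by 0.5 and 100 by 1, and the noise was independent between arrays. In the data 3617 of 5546 genes were called in ts2, and arrays of a slide had a correlation of 0.227. The simulated rates therefore need not hold for the data. Members and lists were chosen with earlier results of these data known. Any of the 31 genes could be named. Values on every array were planned for the largest changes, with others added after the values were seen. Arrays that share a letter were not treated as pairs, since the labels do not tie letters to a culture or day and not every pair of groups had a correlation of deviations over 0.1. That value was passed by 38 of 66 pairs of groups, with a range of -0.133 to 0.567. Alternatives covered centring, the dye term, slide, slide run, WT arrays, filters and left-out arrays. Promoter motifs were not analysed here.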

Additional observations from a re-analysis of the deposited data

Results flagged for a closer look

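For 31 genes and 2 list medians, the ts2 arrays and the WT arrays were each searched for a value far from the rest, and 8 of these 66 sets held one, where chance gives about 1 in 20. MSM1 read 6.21 on ts2 F, far above the other 5 ts2 arrays. ALA1 read -0.83 on the same array, the lowest of the 6 ts2 values, and DIA4 read 0.41 on ts2 E, the lowest of its group. Among the WT arrays, ISM1 read -2.67 and MSF1 -0.71 on WT D, and MSR1 read -1.49 and NAM2 -0.78 on WT A. The median of the mitochondrial synthetases was 0.20 on WT H, the highest of the 8 WT arrays.

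By limma's interaction test the hpa2 effect differed with ts2 for 2 genes as the arrays are labelled, MES1 with -0.66 ± 0.16 (adjusted p = 0.0324) and MSK1 with 1.08 ± 0.28 (adjusted p = 0.0433; SE). With slide run as a block neither was called. With the sign of hpa2 A turned neither was called, and CDC60 (-0.96) and MSE1 (0.66) were.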

How the results depend on the processing

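On the deposited scale, without the array centring, calls among the 31 genes went to 0 in esa1, gcn5, hpa2 and the hpa2 interaction. They also went to 0 in elp3 ts2, hat1 ts2, hpa2 ts2 and sas3 ts2, and to 20 in esa1 ts2. In esa1 ts2, 3045 of 5530 genes were called on that scale. Of all genes, 4 of 5520 were called there in esa1, 29 of 5542 in gcn5, 2 of 5491 in hpa2 and 0 of 5470 in the hpa2 interaction. Changes turned sign there for MSD1 in ts2 (-0.025), ALA1 in esa1 (-0.018), KRS1 in esa1 ts2 (-0.27) and DIA4 in esa1 ts2 (-0.43). With the replicate block by array letter, 2 genes were called in esa1, 0 in gcn5, 0 in hpa2, 7 in hat1 ts2 and 0 in the hpa2 interaction. Of all genes, 955 of 5520, 469 of 5542, 0 of 5491, 1127 of 5484 and 12 of 5470 were then called, in the same order. With slide run as a block the counts were 0 in esa1, gcn5, hpa2 and the hpa2 interaction and 10 in hat1 ts2. Of all genes, 861 of 5520, 474 of 5542, 1 of 5491, 38 of 5470 and 1286 of 5484 were called with this block, in the same order. The cytosolic minus mitochondrial difference with this block was -0.15 in esa1, -0.14 in gcn5 and -0.79 in elp3 ts2. Within single runs, 8 of the synthetase genes were called in esa1 (run 3), where 2315 of 5521 genes were called. In run 2, 6 were called in gcn5 and 1 in its interaction, beside 1779 of 5543 and 73 of 5537 genes. In hpa2 0 were called (runs 1 and 4), and MES1 in ts2 read 0.008 (run 3). WT arrays with their own coefficient gave 2 calls in esa1 and 0 in gcn5, hpa2 and the hpa2 interaction. Without a dye term hpa2 and its interaction had 0 calls, and without a dye sign for WT arrays that interaction had 0. Slide as a random block gave 2 calls in the esa1 and 2 in the gcn5 interaction, and genes above 0 on all arrays gave 1 call in hat1. Turning hpa2 A, an alternative chosen after seeing the data, left 0 calls in hpa2, with WRS1 at -0.23.

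Leaving out 1 array at a time, calls ran over 17 to 20 in ts2, 10 to 15 in elp3 ts2, 9 to 14 in esa1 ts2, 12 to 15 in gcn5 ts2, 6 to 17 in hat1 ts2, 13 to 18 in hpa2 ts2 and 11 to 17 in sas3 ts2. They ran over 0 to 6 in esa1, 0 to 2 in gcn5 and hpa2, 0 to 1 in hat1 and sas3, 0 to 2 in the hpa2 interaction, and 0 to 1 in the esa1, gcn5, hat1 and sas3 interactions. The cytosolic minus mitochondrial difference ran over -0.64 to -0.43 in esa1 ts2, -0.48 to -0.18 in gcn5 ts2, -0.84 to -0.56 in hat1 ts2, -1.04 to -0.66 in hpa2 ts2 and -0.75 to -0.64 in sas3 ts2. It ran over -0.126 to 0.074 in elp3, -0.125 to 0.071 in esa1 and -0.013 to 0.062 in gcn5. MSR1 in hpa2 ts2 ran over -0.188 to 1.94. The causes were not tested, and counts over all genes are not given for left-out arrays. Of the single-gene values, 2224 kept direction and side of the threshold, 257 lost the call and 7 turned sign. Fits without a WT array are among these, and among the alternative settings counted above. With WT fixed at 0 they hardly move a change, so they tell little about its stability. The planned promoter motif search was not run.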
